A study of Bos taurus with 60 samples.

Results

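Known liver miRNAs were compared between 20 Charolais and 20 Angus steers, which are 40 of the 60 steers sequenced, and both groups were taken by the breed given in the sample labels whatever their residual feed intake (RFI) group. RFI is the difference between the feed an animal eats and the feed predicted from its weight and growth, so that a low value marks an efficient animal. Each breed held 6 low-RFI steers, 6 high-RFI steers and 8 steers without an RFI group. The other 20 steers were Kinsella Composite (KC), a crossbred herd, and were used here only where stated. All 40 steers were castrated males of purebred sires, were raised under the same management and finished on 1 diet of barley grain, barley silage and rumensin pellets, and each gave 1 small RNA library from the right lobe of the liver taken at slaughter. Several features of the design limit breed as a variable. The 20 Angus steers came from 7 sires with 1 to 6 sons each, the 20 Charolais steers from 5 sires with 2 to 8 sons each, and no sire had sons in both breeds, so breed cannot be told apart from these sires. The study slaughtered animals at a set average back-fat thickness, and its Charolais steers were on average older at slaughter than its Angus steers. In its low-RFI and high-RFI groups, mean carcass back fat was nonetheless lower in Charolais than in Angus. Breed therefore cannot be told apart from age at slaughter or back fat either. The libraries were sequenced in pools, and which steer was in which pool is not given in the sources used here. On average the study removed a larger share of reads as too long, and kept a smaller share, in Angus than in Charolais.

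MicroRNAs are short RNAs cut from hairpin precursors and loaded into Argonaute proteins, where bases 2 to 8 of the mature miRNA, the seed, pair with messenger RNAs and lower their translation or stability. Mature miRNAs with the same seed are grouped as a family because they can pair with the same sites, and miRNAs cut from 1 long transcript are grouped as a cluster. In liver, miR-122 is the classic hepatocyte miRNA and acts in cholesterol and fatty acid metabolism, while miR-192, miR-194 and miR-215 are shared with other epithelia.

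Of 1030 mature miRNAs listed in the files, 784 had a count in at least 1 of the 40 steers, and 406 reached 1 CPM (read counts scaled to the same library total) in at least 10 of them and were tested. Between Charolais and Angus, 7 miRNAs differed at an adjusted p under 0.05 (edgeR quasi-likelihood F test, Benjamini-Hochberg adjustment over 406 miRNAs), which is 1.72% of those tested. Of these, 4 were higher in Charolais (miR-152, miR-182, miR-11977 and miR-2284b, 0.985% of those tested) and 3 were lower (miR-1343-3p, miR-128 and miR-11986b, 0.739%). In whole liver, fewer cells of a type and less RNA per cell cannot be told apart. Their mature sequences are printed here because the seeds show which of them have relatives among the other liver miRNAs. They run 5′ to 3′, are those of the study's list of known bovine miRNAs, and have the seed in capitals.

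miR-152: uCAGUGCAugacagaacuuggg
miR-148a: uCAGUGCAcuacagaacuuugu
miR-148b: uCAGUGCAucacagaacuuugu
miR-182: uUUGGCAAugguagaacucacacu
miR-183: uAUGGCACugguagaauucacug
miR-96: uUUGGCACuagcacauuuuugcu
miR-11977: uGUCUCAGuucagcaggaag
miR-24-3p: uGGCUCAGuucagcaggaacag
miR-2284b: aAAAGUUCguuugguuuuuuc
miR-2284y: aAAAGUUCguucggguuuuuc
miR-1343-3p: cUCCUGGGgcccgcacucuc
miR-128: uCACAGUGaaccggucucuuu
miR-27b: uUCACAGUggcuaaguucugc
miR-11986b: uUUUCCAAugaguuaguccuuu

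The miR-148a and miR-148b sequences stand beside miR-152 because all 3 carry the seed CAGUGCA. The miR-183 and miR-96 sequences stand beside miR-182 because these 3 miRNAs form 1 cluster with similar but not equal seeds, and miR-27b stands beside miR-128 because both hold the 6 bases CACAGU, from position 3 in miR-27b and from position 2 in miR-128. MiR-24-3p stands beside miR-11977 because their first 19 bases match but for 1. No other tested miRNA had the seed of miR-182, miR-11977, miR-1343-3p, miR-128 or miR-11986b.

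The libraries held between 1930859 and 5703119 counts in Angus (median 3720336) and between 2237959 and 6019099 in Charolais (median 4405876), so that 3 counts were worth 0.498 to 1.55 CPM. No pair of libraries was identical. The profiles of the breeds overlapped: the median Spearman correlation between libraries was 0.966 within Angus, 0.968 within Charolais and 0.966 between breeds. Steers with the same sire had a median of 0.969. The 2 most deviant libraries were both from Charolais. Charolais 16, the deepest library, had 12 of the 106 miRNAs of at least 100 CPM more than 2-fold from the 40-steer median, Charolais 1 had 6, and the other 38 steers had 0 to 5. Without both of these steers, 9 miRNAs were called in place of 7, all 7 of those named above among them. Leaving out Charolais 16 alone gave 10 calls, and leaving out Charolais 1 alone gave 7. Without Angus 19, whose profile did not stand apart, 2 remained of the 7 (miR-152 and miR-1343-3p), the others being at an adjusted p of 0.0513 to 0.053.

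**Figure D1:**
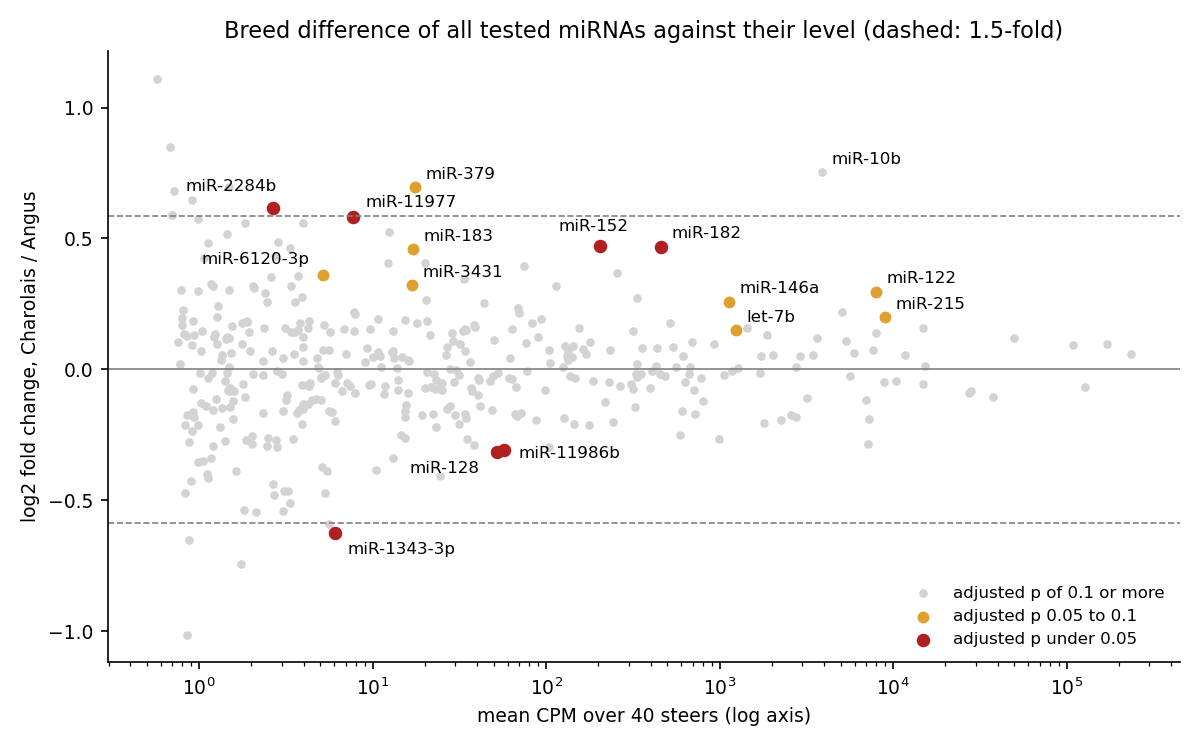
Log2 fold change of Charolais over Angus (vertical axis) against mean CPM over 40 steers (horizontal log axis) for the 406 tested miRNAs, with dashed lines at a 1.5-fold difference. The 7 called miRNAs (red) and the 8 with an adjusted p of 0.05 to 0.1 (orange) spread over the range of levels, and the widest differences in grey lie at the left, at low CPM, apart from miR-10b.

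The differences between the breeds were small for most miRNAs. The median absolute log2 fold change over all 406 was 0.13 and its 90th percentile 0.41, with 200 miRNAs higher and 206 lower in Charolais by the estimate. At an unadjusted p under 0.05 there were 68 miRNAs (16.7%), 35 higher (8.62%) and 33 lower (8.13%), against 20.3 if none differed. Only 15 miRNAs exceeded 1.5-fold, and their median level was 0.913 CPM. The rule of an unadjusted p under 0.05 and a 1.5-fold difference, which the study applied to its RFI groups, was met by 8 miRNAs (1.97%), while 2 (miR-1343-3p and miR-2284b, 0.493%) passed with the adjusted p. The standard error was smaller at higher levels, with a median of 0.068 on the log2 scale for miRNAs of at least 100 CPM and 0.21 under 10 CPM. In the count simulation of this design, 79.1% of 1.5-fold and 40.3% of 1.25-fold differences were found. That simulation changed 200 of the 406 miRNAs and made 147 calls, so its Benjamini-Hochberg threshold was less strict than with 7 calls. It also drew each steer independently, without shared sires. The shares found are therefore likely higher than in these data, and differences of the smaller size were often not detectable with these steers.

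MiR-152, a member of the miR-148 family that is known to target DNA methyltransferase 1 and is encoded within the coatomer gene COPZ2, was the most clearly different miRNA. In Angus its lowest, median and highest levels were 132, 163 and 227 CPM, and in Charolais 127, 231 and 308 CPM. The breeds overlapped, but 19 of 20 Charolais steers lay above the Angus median, 10 lay above the highest Angus steer, and no Angus steer reached the Charolais median. The means were 170.5 ± 26.4 and 236.7 ± 43.8 CPM (SD, n = 20 each), and miR-152 was 1.39-fold higher in Charolais (log2 fold change 0.47, SE 0.078, adjusted p = 0.000108). The exception among Charolais was Charolais 11 with 127 CPM, a son of Charolais sire 4, whose 3 sons together averaged 169 CPM against 215 to 265 CPM for the other 4 Charolais sires.

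The other members of the family, which share its seed, were more abundant and were not called. MiR-148a, a highly expressed liver miRNA with a role in cholesterol uptake, averaged 130380 ± 25223 CPM in Angus and 124360 ± 8026 CPM in Charolais (log2 fold change −0.07, SE 0.062, adjusted p = 0.593). MiR-148b averaged 421 ± 45.4 and 445 ± 51.4 CPM (log2 fold change 0.08, SE 0.055, adjusted p = 0.472). Relative to miR-148a in the same library, the log2 ratio of miR-152 was −9.57 ± 0.34 in Angus and −9.06 ± 0.29 in Charolais, with 19 of 20 Charolais steers above the Angus median. These ratios are a description with no test, since the miRNAs and steers are those of the call. The mature sequences of miR-148a and miR-148b differ from miR-152 at 4 and 3 of 22 positions, and the first 19 bases of miR-152 match miR-148b but for 1 base (G10C, with miR-152 first and positions counted from 1 at the 5′ end), so some reads could be counted for either. MiR-148c, the annotated neighbour of miR-152, had 0 counts in all 40 steers.

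MiR-182 is an epithelial and sensory miRNA cut from the same transcript as miR-183 and miR-96. Its lowest, median and highest levels were 136, 384 and 730 CPM in Angus and 370, 516 and 682 CPM in Charolais. Angus steers were the more scattered, with 9 of 20 below the lowest Charolais steer and 1 above the highest, and 19 of 20 Charolais steers lay above the Angus median. The means were 386 ± 134 and 533 ± 92.0 CPM, a 1.38-fold difference (log2 fold change 0.47, SE 0.12, adjusted p = 0.0307). This call was lost on leaving out any 1 of 9 steers (Angus 2, 3, 4, 13 or 19, or Charolais 6, 7, 12 or 20), at adjusted p between 0.0515 and 0.0648.

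The other members of the cluster were less abundant. MiR-183 had lowest, median and highest levels of 5.39, 13.9 and 22.9 CPM in Angus and 8.57, 19.8 and 33.2 CPM in Charolais. Its log2 fold change of 0.46 (SE 0.15) was as large as that of miR-182, but its adjusted p was 0.0928. MiR-96 averaged 5.35 CPM in Angus and 5.95 CPM in Charolais (log2 fold change 0.14, SE 0.18, adjusted p = 0.735). The log2 ratio of miR-182 to miR-183 within a library, given as a description, was 4.73 ± 0.30 in Angus and 4.80 ± 0.38 in Charolais, and 10 of 20 Charolais steers lay above the Angus median of that ratio. The log2 ratio of miR-182 to miR-96 was 6.21 ± 0.51 in Angus and 6.51 ± 0.42 in Charolais, with 18 of 20 Charolais steers above the Angus median.

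**Figure D2:**
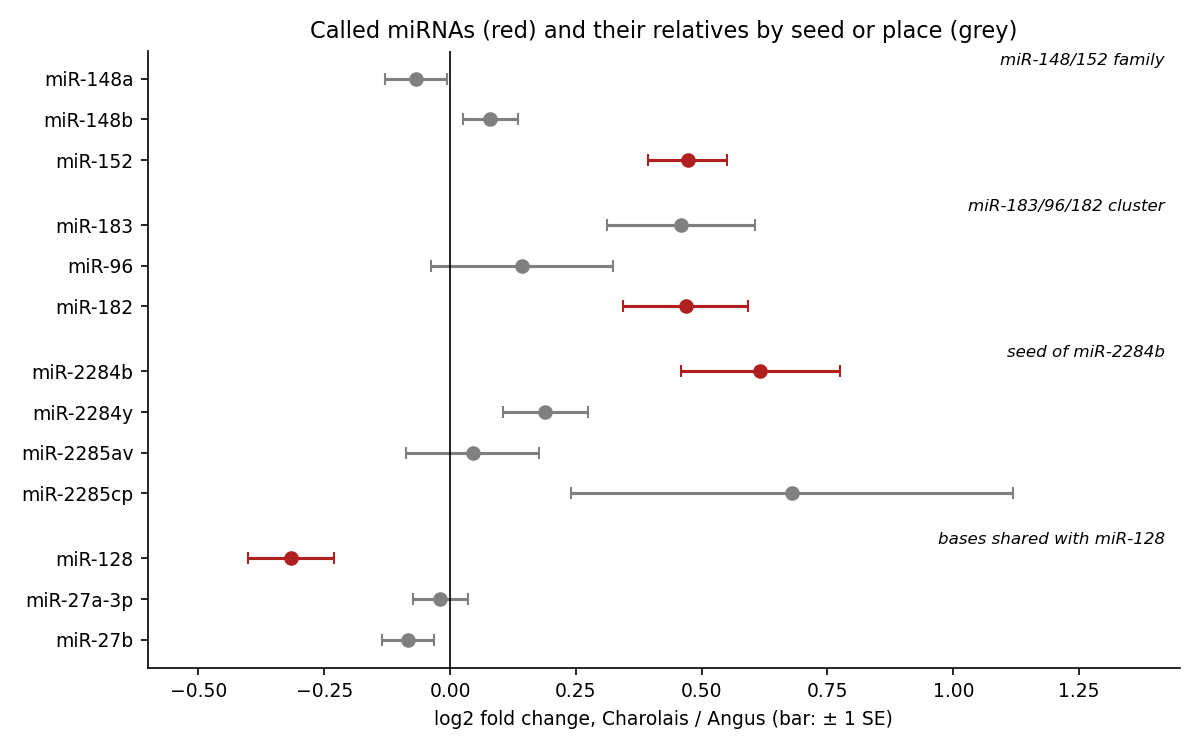
Log2 fold change of Charolais over Angus (horizontal axis, points with bars of 1 SE) for called miRNAs (red) and the miRNAs related to them by seed, shared bases or cluster (grey). MiR-152 lies at 0.47 apart from miR-148a at −0.07 and miR-148b at 0.08, while miR-183 at 0.46 lies beside miR-182 at 0.47. MiR-96, of the same cluster, lies at 0.14.

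MiR-11977, a bovine miRNA without a described role that RefSeq's ARS-UCD2.0 annotation places in no other gene, was low in both breeds. Its lowest, median and highest levels were 3.11, 5.90 and 10.3 CPM in Angus and 5.28, 8.57 and 20.5 CPM in Charolais. All but 2 Charolais steers were above the Angus median, and 8 Angus steers lay below the lowest Charolais steer. It was 49.6% higher in Charolais (log2 fold change 0.58, SE 0.15, adjusted p = 0.0297). The highest value was that of Charolais 16, one of the deviant libraries, and without that steer the log2 fold change was 0.50 (adjusted p = 0.0343). The first 19 bases of miR-11977 differ from those of miR-24-3p, a widely expressed miRNA, at 1 base (U3G, with miR-11977 first and positions counted from 1 at the 5′ end), so reads of the more abundant miR-24-3p could have been counted for it. MiR-24-3p averaged 485 ± 56.0 CPM in Angus and 548 ± 194 CPM in Charolais (log2 fold change 0.18, SE 0.096, adjusted p = 0.325) and was also high in Charolais 16, at 1294 CPM. The log2 ratio of miR-11977 to miR-24-3p within a library, given as a description, was −6.33 ± 0.44 in Angus and −5.90 ± 0.27 in Charolais, with 19 of 20 Charolais steers above the Angus median. The part of such reads in the miR-11977 counts was not tested.

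MiR-2284b belongs to a large ruminant family of miRNAs, numbered miR-2284 and miR-2285, and lies within the cadherin-related gene CDHR3. Its lowest, median and highest levels were 0.844, 2.12 and 3.96 CPM in Angus and 1.67, 3.23 and 4.43 CPM in Charolais. Near the filter, 3 Angus steers had 3 counts or fewer and no Charolais steer did, and 19 of 20 Charolais steers lay above the Angus median. It was 1.53-fold higher in Charolais (log2 fold change 0.62, SE 0.16, adjusted p = 0.0297). The mature sequence matches miR-2285aj-5p with at most 1 mismatch, so a read could be counted for either or for both. MiR-2285aj-5p is in turn near-identical to others, among them miR-2284x at 525 CPM in Angus and 557 CPM in Charolais. With the counts of all miRNAs linked in this way summed, the log2 fold change was 0.09 (adjusted p = 0.33). That sum is mostly of the more abundant members, and miR-2284b and miR-2285aj-5p were not summed alone. The call is therefore for the counts as the authors' quantification assigned them within the family.

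Other family members have the seed of miR-2284b, and none was called. MiR-2284y averaged 14.4 ± 2.58 CPM in Angus and 16.4 ± 2.61 CPM in Charolais (log2 fold change 0.19, SE 0.084, adjusted p = 0.214). MiR-2285av differed by 0.04 (SE 0.13, adjusted p = 0.883) and miR-2285cp, under 1 CPM in both breeds, by 0.68 with an SE of 0.44 (adjusted p = 0.434).

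Among the miRNAs lower in Charolais, miR-1343-3p showed the widest difference. It is cut from the 3′ arm of a hairpin within PDHX, the gene of a component of the pyruvate dehydrogenase complex. Its lowest, median and highest levels were 4.40, 6.87 and 11.1 CPM in Angus and 1.87, 4.64 and 7.85 CPM in Charolais. At both ends the breeds parted, with 8 Angus steers above every Charolais steer and 8 Charolais steers below every Angus steer. The means were 7.41 ± 2.12 and 4.79 ± 1.51 CPM, a 1.54-fold lower level in Charolais (log2 fold change −0.62, SE 0.14, adjusted p = 0.0104). The call was kept on leaving out each of the 40 steers and each of the 12 sires in turn.

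MiR-128, a miRNA known for its targets in cholesterol and lipoprotein handling, is produced from a pair of hairpins within R3HDM1 and ARPP21, and the deposited counts of the 2 precursors were averaged. Its lowest, median and highest levels were 38.1, 55.5 and 77.3 CPM in Angus and 27.0, 46.7 and 63.9 CPM in Charolais. The ranges overlapped widely, although 19 of 20 Angus steers lay above the Charolais median and 3 of 20 Charolais steers above the Angus median. It was 19.7% lower in Charolais (log2 fold change −0.32, SE 0.085, adjusted p = 0.0307), and the call was lost on leaving out any 1 of 10 steers (Angus 3, 4, 9, 13 or 19, or Charolais 4, 6, 7, 8 or 12), at adjusted p between 0.0501 and 0.0703. The miR-27 pair, which shares 6 seed bases with it one position along, was not called, with log2 fold changes of −0.02 for miR-27a-3p (SE 0.055, adjusted p = 0.882) and −0.08 for miR-27b (SE 0.051, adjusted p = 0.396).

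MiR-11986b, a bovine miRNA within OCLN, the gene of the tight junction protein occludin, had lowest, median and highest levels of 42.6, 63.7 and 92.5 CPM in Angus and 39.0, 49.9 and 67.8 CPM in Charolais. Of the Angus steers 17 lay above the Charolais median, and of the Charolais steers 2 lay above the Angus median. It was 19.3% lower in Charolais (log2 fold change −0.31, SE 0.080, adjusted p = 0.0297). With upper quartile normalization in place of TMM neither miR-11986b (adjusted p = 0.0989) nor miR-128 (adjusted p = 0.0761) was called, which left 4 calls higher and 1 lower in Charolais.

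**Figure D3:**
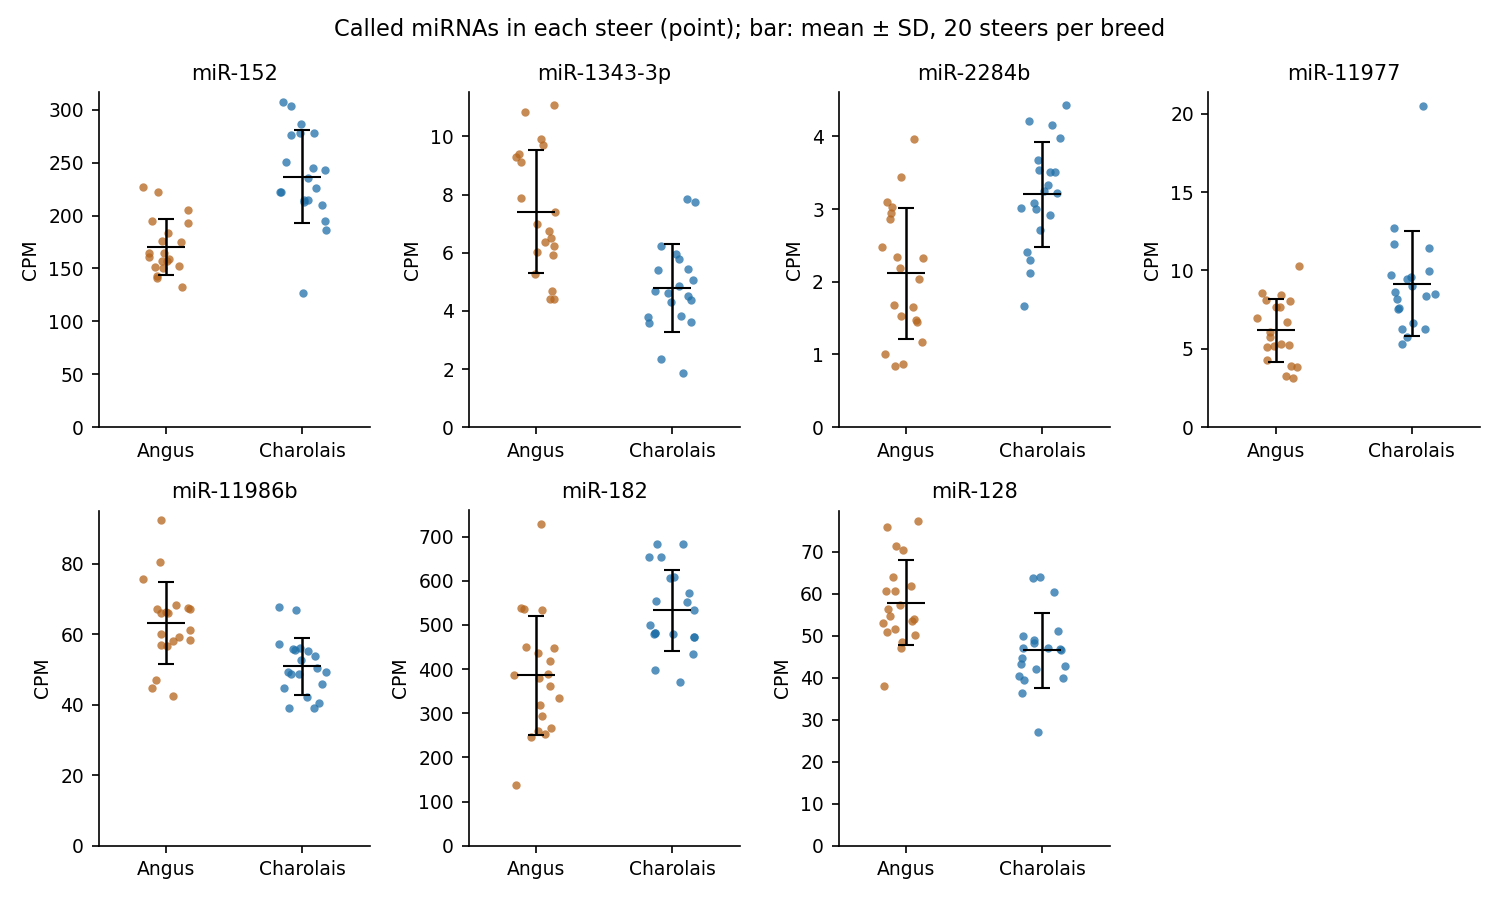
CPM (vertical axes, from 0) of the 7 called miRNAs in each of 20 Angus (brown) and 20 Charolais (blue) steers, with black bars for the mean and SD. The breeds overlap in every panel, and in the miR-182 panel the Angus steers spread from 136 to 730 CPM against 370 to 682 CPM in Charolais.

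Because half-brothers share a sire, the 7 called miRNAs were also compared over the means of the 7 Angus and 5 Charolais sires. These are the same steers that gave the calls, so the test asks only whether a few large sire families carried a difference. Of the 792 ways to assign 5 of 12 sires, the smallest possible two-sided exact p is 0.00253. MiR-1343-3p and miR-11977 reached it, and for these 2 miRNAs the sire means of the breeds did not overlap. For miR-1343-3p the sire means ran from 6.12 to 10.4 CPM in Angus and from 4.54 to 4.97 CPM in Charolais, and for miR-11977 from 4.44 to 7.21 CPM in Angus and from 7.80 to 11.8 CPM in Charolais. The exact permutation p was 0.00505 for miR-182 and miR-128, 0.0101 for miR-152 and miR-11986b, and 0.0455 for miR-2284b, none of them adjusted. The widest spread between sires was that of miR-182 in Angus, from 136 CPM in the only son of Angus sire 7 to 516 CPM in the 5 sons of Angus sire 2, whereas the 5 Charolais sires lay between 492 and 598 CPM. With the sires as replicates in the fit over all miRNAs, miR-152, miR-1343-3p and miR-11977 were called at an adjusted p of 0.0403 each, together with miR-92b, a miRNA related to the miR-17-92 cluster.

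**Figure D4:**
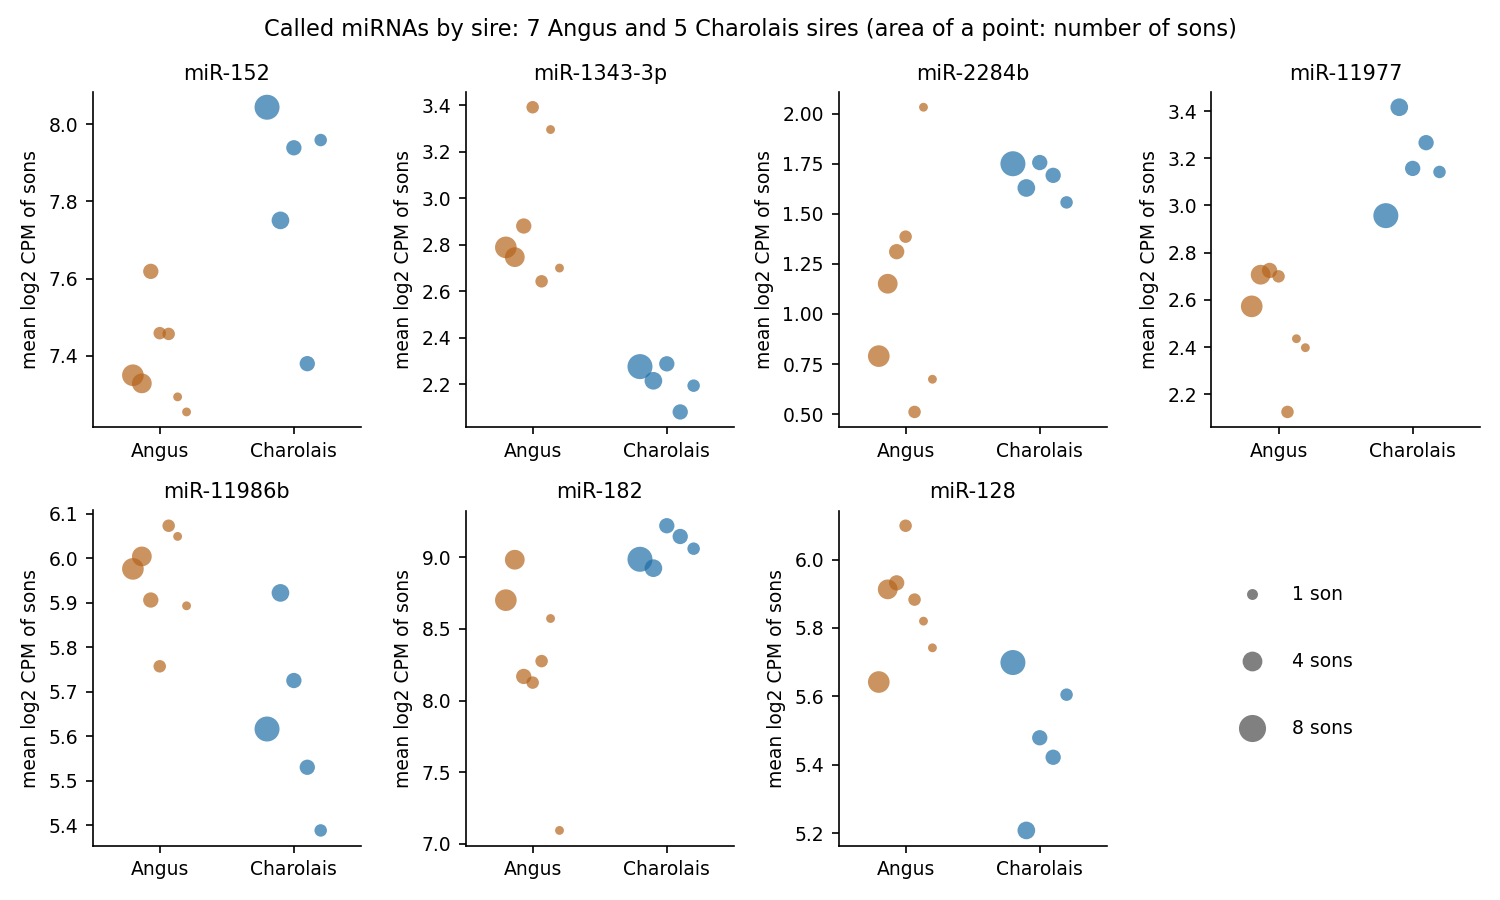
Mean log2 CPM (vertical axes) of the sons of each of 7 Angus (brown) and 5 Charolais (blue) sires for the 7 called miRNAs, with the area of a point proportional to the number of sons. For miR-1343-3p and miR-11977 the breeds do not overlap, and for miR-152 Charolais sire 4 lies among the Angus sires.

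Within each RFI class the 7 miRNAs kept the direction seen over all 40 steers, although no miRNA was called within a class of 6 or 8 steers per breed. These classes are parts of the 40 steers that gave the calls, so the shared direction is a description with no test. The log2 fold change of miR-152 was 0.41 in low-RFI steers (SE 0.12), 0.50 in high-RFI steers (SE 0.12) and 0.50 in the steers without a group (SE 0.16). That of miR-1343-3p was −0.74, −0.55 and −0.60, in the same order. The values were less even for miR-182, with 0.67, 0.67 and 0.23, and for miR-128, with −0.45, −0.11 and −0.38. For miR-11977 they were 0.67, 0.32 and 0.70, for miR-2284b 0.79, 0.51 and 0.58, and for miR-11986b −0.24, −0.36 and −0.31. A test of whether the breed difference depended on the RFI group, over the 24 steers that have one, called 0 of 408 miRNAs (0.0%), with 20 (4.9%) at an unadjusted p under 0.05. DESeq2 also called 0, while edgeR's likelihood ratio test called 1, miR-2285u. The smallest adjusted p in the quasi-likelihood test was 0.274 (miR-2285u), and for the 7 miRNAs it was 0.987 or more.

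The levels of the same 7 miRNAs in the 20 KC steers, whose herd was bred in part from Angus and Charolais bulls, are given as a description with 1 scaling over all 60 steers. For miR-152 the KC median was 207 CPM, between 164 CPM in Angus and 237 CPM in Charolais, and 19 of 20 KC steers were above the Angus median. For miR-182 the KC median of 409 CPM and for miR-11977 that of 6.08 CPM lay nearer to Angus (370 and 5.83 CPM) than to Charolais (523 and 8.71 CPM), and 1 of 20 KC steers was above the Charolais median for each. The KC median of miR-128 (45.6 CPM) was close to that of Charolais (46.1 CPM), and that of miR-1343-3p (6.57 CPM) was nearer to Angus (7.06 CPM). For miR-11986b the KC median of 56.0 CPM lay between 63.0 CPM in Angus and 50.7 CPM in Charolais. MiR-2284b had its lowest median in KC, at 1.57 CPM.

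At an adjusted p under 0.1 there were 15 miRNAs (3.69%). The 8 beyond the called ones lay between 0.05 and 0.1, and all 8 were higher in Charolais by the estimate. They are described here because they include leading liver miRNAs, and none of them passed the test. MiR-122 had lowest, median and highest levels of 5098, 7172 and 8870 CPM in Angus and 6163, 8127 and 17408 CPM in Charolais (log2 fold change 0.30, SE 0.092, adjusted p = 0.0928). MiR-215 had 5256, 8564 and 10616 CPM in Angus and 7687, 9941 and 11148 CPM in Charolais, with a log2 fold change of 0.20. For miR-3431, a ruminant miRNA, all 20 Charolais steers lay above the Angus median, at 15.4, 18.1 and 26.9 CPM against 7.53, 15.1 and 26.4 CPM. Let-7b, with 19 of 20 Charolais steers above the Angus median of 1171 CPM, differed by 0.15 and had a narrow SE of 0.046. The others were miR-146a, a miRNA of the innate immune response (log2 fold change 0.26), miR-183, miR-6120-3p (0.36) and miR-379 of the imprinted DLK1-DIO3 cluster (0.70). In 1 fit over all 60 steers, miR-122 (adjusted p = 0.0493), miR-379 (0.0493), miR-215 (0.0338), let-7b (0.0338) and miR-6120-3p (0.0443) were called, beside 6 of the 7 named above. MiR-11986b was not called in that fit (adjusted p = 0.0618). Without Charolais 16, let-7b (adjusted p = 0.0343), miR-215 (0.0343) and miR-6120-3p (0.0493) were called too. Other settings weakened them. The log2 fold change of miR-122 was 0.23 (adjusted p = 0.0797) without Charolais 16 and 0.20 (0.104) without Charolais 1 and 16. With sires as replicates none of the 8 was called. The adjusted p was then 0.279 for miR-122, 0.227 for miR-215 and 0.513 for let-7b, whose log2 fold change was 0.08.

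Charolais 16 weighed on the estimates of miR-379 and miR-10b. MiR-379 stood at 108 CPM in that library and at a median of 14.9 CPM in the 38 steers other than Charolais 1 and 16, and without Charolais 16 its log2 fold change was 0.37 (adjusted p = 0.13). MiR-10b, a miRNA of Hox gene clusters and mesenchymal cells, stood at 50492 CPM in Charolais 16 and at 1395 to 6348 CPM in those 38 steers. Its log2 fold change was 0.75 (SE 0.38, adjusted p = 0.294) with that library and −0.22 (adjusted p = 0.496) without it. The near-identical miR-10a was at 21911 CPM in that library against 3167 to 6976 CPM in those 38 steers, and miR-100 at 18657 against 3025 to 9570 CPM. Charolais 1 was the lowest of all for miR-100 (1559 CPM), miR-10a (2093 CPM) and miR-99b (659 CPM, against at least 1234 CPM in those 38 steers). What sets these 2 libraries apart was not tested.

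The highest level in both breeds was that of miR-192, at 230380 ± 35940 CPM in Angus and 240040 ± 27798 CPM in Charolais, and miR-122 of hepatocytes ranked 16 with a mean of 8010 CPM over the 40 steers. Muscle miRNAs summed to 20.6 to 53.4 CPM in Angus and 22.1 to 61.8 CPM in Charolais. None of the 10 most abundant miRNAs was called. Their log2 fold changes ran from −0.11 for miR-22-3p (adjusted p = 0.371) to 0.12 for miR-26a (adjusted p = 0.388), and included miR-143 of smooth muscle and stellate cells (0.10, adjusted p = 0.665), miR-30a-5p (0.09, adjusted p = 0.606) and let-7f (−0.09, adjusted p = 0.388).

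Of the lists of cell type markers, none held a called miRNA. Of 7 hepatocyte miRNAs, 4 (miR-122, miR-885, miR-194 and miR-215) had an unadjusted p under 0.05 and were higher in Charolais, and the list's median log2 fold change was 0.13 against −0.00484 over all tested miRNAs. The more abundant miR-192 (log2 fold change 0.06), miR-148a (−0.07) and miR-101 (−0.05) did not meet that rule, and the last 2 were lower in Charolais by the estimate. Of 9 leukocyte miRNAs, all were higher in Charolais by the estimate, 5 of them (miR-146a, miR-146b, miR-150, miR-155 and miR-181a) at an unadjusted p under 0.05, with a median of 0.14. The background at that rule and direction is 8.62% of all miRNAs. MiR-146a and miR-146b are near-identical, so a read could be counted for both, and they may not be separate members of that count. MiR-146b stood at 868 CPM in Charolais 16 and at 106 to 447 CPM in the 38 steers other than Charolais 1 and 16, and its log2 fold change was 0.37 (adjusted p = 0.199) with Charolais 16 and 0.23 (adjusted p = 0.335) without it. Without that steer 4 leukocyte miRNAs met the rule. The summed level of the leukocyte list ran from 10803 to 15291 CPM in Angus (median 12675) and from 11815 to 17044 CPM in Charolais (median 13683). The erythroid miRNAs miR-486, miR-451 and miR-144 were lower in Charolais by the estimate (log2 fold changes −0.29, −0.25 and −0.41, adjusted p = 0.294, 0.44 and 0.181), and their sum ran from 4841 to 12911 CPM in Angus (median 7886) and from 3368 to 11926 CPM in Charolais (median 6164). MiR-144 alone had an unadjusted p under 0.05, against a background of 8.13% of all miRNAs in that direction. Without the 8 sons of Charolais sire 1 the log2 fold change was −0.07 for miR-486 (adjusted p = 0.87) and −0.12 for miR-451 (adjusted p = 0.834). The value of miR-144 without them is not given here. The part of these cell types in the 7 calls was not tested. Mesenchymal (10 tested), endothelial (2), biliary (6) and muscle (4 of 7 tested) miRNAs had 0 members at an unadjusted p under 0.05 (edgeR), and medians of −0.0038, 0.032, 0.096 and 0.065.

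Among 16 miRNAs known for roles in lipid and glucose metabolism, miR-152 was called (6.25%, against 1.72% of all tested miRNAs), and 4 others had an unadjusted p under 0.05, which makes 31.2% at that rule against 16.7%. The list was chosen with earlier results of these data known, and it holds neither miR-148b nor the called miR-128. These shares depend on that choice and are a description with no test. MiR-122 and miR-21-5p (log2 fold change 0.16, adjusted p = 0.294) were higher in Charolais by the estimate. MiR-33b, which lies within the sterol regulatory gene SREBF1 and represses cholesterol export, had lowest, median and highest levels of 30.6, 40.9 and 58.0 CPM in Angus and 20.0, 32.5 and 47.7 CPM in Charolais (log2 fold change −0.29, SE 0.097, adjusted p = 0.107). MiR-370 stood at −0.54 (adjusted p = 0.107). The list's median was 0.02, and 8 of 16 members were higher in Charolais by the estimate, so the members pointed both ways.

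Of 148 miRNAs numbered miR-2284 or miR-2285, 62 were tested and 1, miR-2284b, was called. At an unadjusted p under 0.05, 4 were higher in Charolais and 7 lower, with a median over the 62 of −0.01. These 11 are 17.7% of the family, near the 16.7% of all tested miRNAs, and the 1 call is 1.61% of the family against 1.72%. The most abundant members were miR-2284x at 525 ± 53.0 CPM in Angus and 557 ± 44.0 CPM in Charolais (log2 fold change 0.09, adjusted p = 0.312), and miR-2285f at 304 ± 82.8 and 367 ± 57.4 CPM (0.27, adjusted p = 0.127). All 5 tested members of the X-linked miR-424 and miR-450 cluster were lower in Charolais by the estimate, as were 206 of all 406. At an unadjusted p under 0.05 there were 3, against a background of 8.13% in that direction: miR-450b (log2 fold change −0.21, adjusted p = 0.199), miR-424-5p (−0.26, adjusted p = 0.148) and miR-424-3p (−0.74, adjusted p = 0.127). Without Charolais 16 there were 2, and 1 of the 5 tested members was then higher in Charolais by the estimate. Of 30 tested miRNAs of the DLK1-DIO3 cluster, 2 were higher (miR-379 and miR-382) and 2 lower (miR-370 and miR-665) at that rule, which is 13.3% against 16.7% of all, with a median of 0.04. The let-7 list had let-7b alone among 9, with a median of 0.05, and the miR-17-92 list had 0 of 12 (edgeR), with a median of −0.03.

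**Figure D5:**
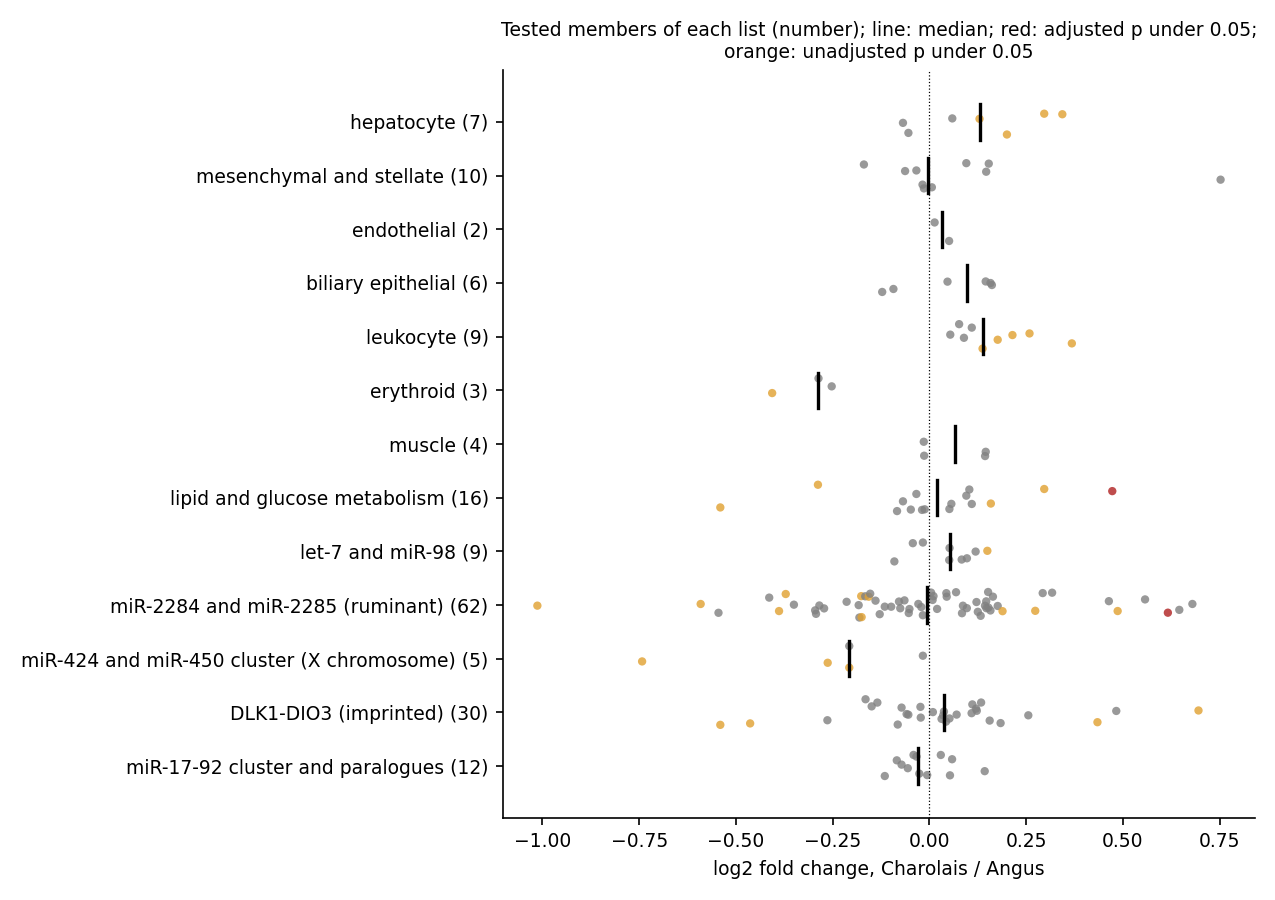
Log2 fold change of Charolais over Angus (horizontal axis) of the tested members of 13 miRNA lists, with the number tested in brackets and a black line at the median of each list. Red marks the called miR-152 and miR-2284b, orange an unadjusted p under 0.05, and the outlying mesenchymal point at 0.75 is miR-10b.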

How the data were processed

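The deposited files hold counts of reads, not normalized, for each of 1155 pairs of mature miRNA and precursor. Per the study's methods and the submitters' processing notes, the authors demultiplexed with bcl2fastq 2.17.1.14, trimmed adapters with cutadapt 1.16, kept reads by length, removed reads of other small RNAs, and counted known bovine miRNAs of miRBase with miRDeep2 (Bowtie 1.1.1, bovine build UMD3.1). FastQC 0.11.7 was used for quality. Quantified this way, a read that fits several near-identical miRNAs can be counted for more than 1 of them.

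Counts were averaged over precursors (82 mature miRNAs have more than 1) and rounded. The steers were grouped by the breed in the labels, and miRNAs that reached 1 CPM in 10 or more of the 40 were fitted with edgeR 4.0.16 (limma 3.58.1, R 4.3.3): TMM normalization, robust dispersion, quasi-likelihood F test, breed as the only term. SE is the log2 fold change over the square root of F. The filter of the interaction was 1 CPM in at least 6 of 24 steers. P-values measure the spread between steers, and sire means were compared by an exact permutation test. Ratios within libraries use log2 CPM with a prior count of 0.5. Near-identical means at most 1 mismatch over the whole overlap of at least 18 bases at a shift of at most 2, so miR-24-3p and miR-148b, which match a called miRNA over 19 bases alone, were not summed with it. Sums were taken over all miRNAs joined by a chain of near-identical pairs. Sequences came from the study's list of known miRNAs (403 of the 406 tested), and host genes and neighbours within 10 kb by name from RefSeq (ARS-UCD2.0, no coordinates used).

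MiRNAs described are those called, the 10 most abundant, the 2 most abundant of each list and any called member. Relatives by seed, miRNAs with an adjusted p from 0.05 to 0.1, other list members at an unadjusted p under 0.05, and miRNAs of the deviant libraries were picked with their values in view. The comparison, the members and the 13 lists were chosen with earlier results of these data known. The fit was tested on simulated data: of 200 changed among 406 miRNAs in this comparison it found 40.3% at 1.25-fold, 79.1% at 1.5-fold and 93.9% at 2-fold, and 3.4% of its calls were unchanged miRNAs. Alternatives were other tests (DESeq2 1.42.0, limma voom), scalings, filters, precursor counting, equal depth by thinning, sire and RFI terms, and leaving out each steer or sire.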

Additional observations from a re-analysis of the deposited data

How the results depend on the processing

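Beside the reported 7 calls, other settings gave 2 without a filter on low counts, 11 with all 60 steers in 1 fit, 2 in the 24 steers with an RFI group and 4 with sires as replicates. All other settings, 2 of them chosen after seeing the data (no robust dispersion, and Charolais 1 and 16 left out together), gave 5 to 9. The 2 calls above 1.5-fold became 4 with limma voom, 1 by library total, 1 without a filter, 0 with at least 10 counts in every steer (edgeR, with 48 at an unadjusted p under 0.05, and 5 calls without the fold rule), 1 with near-identical miRNAs summed, 4 with all 60 steers and 1 in the 24 steers. Leaving out 1 steer gave 2 to 11 calls (1 to 3 above 1.5-fold), with 2 without Angus 19, 11 without Angus 7 or Charolais 5, and 1 above 1.5-fold without Angus 15, 16 or 19 or Charolais 4. Leaving out 1 sire gave 2 to 10 (1 to 5 above 1.5-fold), with 2 without Angus sire 5 or Charolais sire 4, and 5 above 1.5-fold without Angus sire 2. The interaction with RFI had 0 to 1 calls on leaving out a steer, 1 (without Angus 12) and 1 in the likelihood ratio test being miR-2285u.

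MiR-152 was called in all 21 alternatives and on leaving out every steer and sire. MiR-1343-3p was called in 18 of 20, but not after thinning to equal depth (adjusted p = 0.0543) or in the 24 steers (0.105). MiR-2284b was called in 15 of 20, miR-11977 in 17 of 21, miR-11986b in 16 of 21, miR-182 in 19 of 21 and miR-128 in 16 of 21, and all kept their direction. Leaving out Angus 19 ended the calls of miR-2284b, miR-11977 and miR-11986b (0.0513 each), and leaving out Charolais 4 that of miR-11986b (0.0571). Of sires left out, 4 ended the call of miR-2284b, 3 of miR-11977, 6 of miR-11986b, 6 of miR-182 and 7 of miR-128. The cause was not tested.

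Replicate numbers do not pair the steers: of 20 same-numbered pairs 3 had deviations correlated above 0.1 (−0.156 to 0.149). With the replicate block 6 miRNAs were called (all but miR-11977, adjusted p = 0.0582), and in the interaction 1 (miR-10225a, adjusted p = 0.0189).

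Reversed values, none of a called miRNA, were for miR-10b −0.24 (DESeq2) and −0.19 (without both Charolais steers), for miR-1 −0.19 (limma voom), −0.19 (sire as a random effect), −0.26 (without both) and −0.030 (block), for miR-126-5p −0.015 (library total) and −0.010 (sires), for miR-126-3p −0.046 (sires) and for miR-142-5p −0.0028 (24 steers). MiR-411a, at 0.01, gave −0.032 (limma voom), −0.015 (library total), −0.0018 (10 counts), −0.0024 (20 steers), −0.0043 (near-identical summed), −0.0035 (thinned), −0.018 (sire as a random effect), −0.034 (block) and −0.0028 (without both). On leaving out 1 steer or sire the ranges that crossed 0 were −0.23 to 1.19 for miR-10b, −0.33 to 0.37 for miR-1, −0.046 to 0.14 for miR-411a, −0.0088 to 0.29 for miR-133a, −0.0052 to 0.043 for miR-126-5p and −0.024 to 0.088 for miR-126-3p. Scalings moved the median of all miRNAs by at most 0.04. Depth limits miRNAs near 1 CPM, where 3 counts are up to 1.55 CPM. Age at slaughter, back fat and sire cannot be told apart from breed. Whether pool can be is not known, since the pool of each steer is not given in the sources used here.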

Other observations

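Of the mature miRNAs with counts, 378 stayed under the filter and were not tested. The tested miRNA with the largest fold difference was miR-873, at 0.344 CPM in Angus and 0.799 CPM in Charolais (log2 fold change 1.11, adjusted p = 0.107, edgeR). It had 3 counts or fewer in 18 of 20 Angus and 10 of 20 Charolais steers. Limma voom called it at an adjusted p of 0.038.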
